A study of Oncorhynchus mykiss with 8 samples.

Results

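Transcripts on 2 probes with names of slow (red) muscle proteins, myosin light chain 3-like (probe A_05_P248844) and myoglobin (probe A_05_P252139), are described here across white muscle of large and small rainbow trout. They are 2 of 43603 probes, and both had a value on each of the 8 arrays. They were picked by name for their size effects in a Dec. and a Sept. lot, so those effects, and the contrast between the lots, are given as a description without a test. The study had listed both by a p computed from these same arrays. That p may depend on the spread between dye orientations and pools, so these differences too are given with their errors and no test.

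Slow fibres lie in a red sheet beneath the skin along the lateral line and drive steady swimming, whereas the white fibres of the trunk contract fast and largely without oxygen. Each fibre type has its own isoforms of myosin, troponin and tropomyosin. A myosin head carries an essential and a regulatory light chain. Myosin light chain 3 is a name of the essential chain of mammalian heart and slow muscle, though not of that chain alone. Myoglobin binds oxygen inside the cell and gives red muscle its colour. Per the methods the array was built from Atlantic salmon sequences, and neither probe was matched here to a trout gene. The fibre type of both probes therefore rests on their names, and for the light chain the name does not settle it.

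All fish were untreated Lyndon strain trout, fed ad libitum per the labels and by a ration set from body weight per the methods. The groups were large and small fish of the Dec. lot and large and small fish of the Sept. lot, the lots being named for the month of spawning and sampled as immature juveniles of similar age, a little over a year old. Per the methods, a lot was 1 male crossed with several females, with another male for the other lot, and a pool combined mRNA of 5 fish, 1 per female, all large or all small. A plug of white muscle was cut well above the lateral line, away from the red muscle, with its skin removed. Each lot had 2 pool pairs (large against small), each on 2 arrays with the Alexa Fluor 555 and 647 dyes exchanged. Per the methods, a pair set the largest fish of each female against the next-to-smallest. The other pair set the next-to-largest against the smallest, from the same females. The labels do not say which pair is which, so the pairs of a lot also differ in size rank. Since the arrays of an exchange hold the same RNA they were averaged, giving n = 2 in each lot, whereas the submitters' design text counts 4. Season, sampling date, sire and dams differ together between the lots and cannot be told apart.

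Values are log2(large/small) and positive where a transcript was higher in large fish. That direction is likely rather than stated. It rests on the probes that the study listed for muscle, the 2 described here left out, counted once per lot and direction. In 1472 of 1472 such listings the sign was as listed. For this the deposited ratios were read as small over large, with exchanged arrays already turned. With the exchanged arrays still to be turned, 1040 of 1472 had the listed sign. The listing came from these same arrays, so the count shows how the study read them and is no independent check. An array held 41909 to 43249 values with a median between -0.03 and 0.02. The arrays of an exchange correlated over all probes at 0.47 in Dec. pair 2 but at -0.26 in Dec. pair 1, -0.17 in Sept. pair 1 and -0.11 in Sept. pair 2. Arrays of different pools with large fish in the same dye correlated at 0.41 (Alexa 555) and 0.05 (Alexa 647) in the Dec. lot and at 0.24 (Alexa 555) and 0.30 (Alexa 647) in the Sept. lot. The dye orientation thus went with part of the ratios, most clearly in the Sept. lot, and averaging an exchange sets the orientations against each other. Ratios carry no level, so the labelled tissue could not be checked against the amount of its defining transcripts, and fewer cells of a type cannot be told apart from less RNA per cell.

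Myosin light chain 3-like was up-regulated in small Dec. fish by 4.69-fold at the mean (-2.23 ± 0.29, SE, n = 2 pool pairs). This and later SEs of lot means are limma's, with the spread shared by both lots and drawn towards that of all probes. The SE of a lot's 2 pool pairs alone can be larger. It is larger for this mean, whose pool pairs were at -1.69 and -2.77, for both lot means of myoglobin and for the Dec. mean of troponin T, cardiac muscle. In Dec. pair 1 the log2 ratio of myosin light chain 3-like was -1.08 on the array with large fish in Alexa 555 and -2.30 on the array with large fish in Alexa 647. In Dec. pair 2 it was -3.70 with large fish in Alexa 555 and -1.83 with large fish in Alexa 647. All 4 Dec. arrays were thus below 0, as for 7.56% of 39770 probes, and the pool pairs averaged -1.69 in pair 1 and -2.77 in pair 2. Only 2 of the 42297 probes on the lowest of these arrays were lower still. By the lot mean, it stood 3rd from the bottom of 39770 probes.

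Among Sept. fish the same probe lay closer to 0. Its log2 ratio was 0.61 and 0.42 on the arrays of pair 1 (large fish in Alexa 555, then 647), and 0.43 and -0.25 on those of pair 2. The 3 positive arrays and the 1 negative array gave a mean of 0.30 ± 0.29 (SE, n = 2), 1.23-fold higher in large fish, with 0.51 in pair 1 and 0.09 in pair 2. The mean was about the size of its own error, and it stood 1348th from the top of 41524 probes.

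Myoglobin, the oxygen store, had a smaller difference in the Dec. lot and a larger one in the Sept. lot than the light chain. In Dec. pair 1 its log2 ratio was -0.81 with large fish in Alexa 555 and -1.37 with large fish in Alexa 647. In Dec. pair 2 it was -1.60 with large fish in Alexa 555 and 0.34 with large fish in Alexa 647. Of the Dec. arrays, 3 were below 0 and 1 was above it, although both pool pairs averaged below 0 (-1.09 in pair 1 and -0.63 in pair 2). The lot mean was -0.86 ± 0.19 (SE, n = 2), 1.82-fold higher in small fish and 139th from the bottom of 39770 probes.

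Among Sept. fish myoglobin was 1.53-fold higher in large fish (0.61 ± 0.18, SE, n = 2), 316th from the top of 41524 probes. The arrays read 0.38 and 1.38 in pair 1 (large fish in Alexa 555, then 647) and -0.04 and 0.73 in pair 2. Thus 1 array was at about 0 and 3 were above it, and the pairs averaged 0.88 in pair 1 and 0.34 in pair 2.

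**Figure D1:**
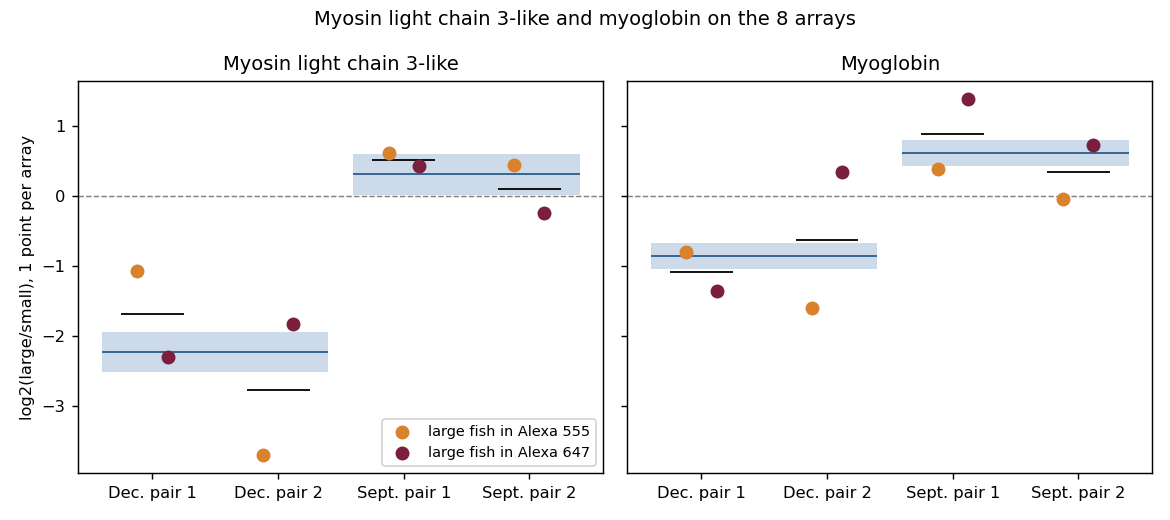
Log2(large/small) on the y axis for each pool pair on the x axis. Points are single arrays, coloured by the dye of the large fish, and black bars are pool pair means. Blue lines with bands are lot means ± limma's SE (n = 2 pool pairs, spread shared by both lots). All Dec. points of myosin light chain 3-like lie below all its Sept. points, while the myoglobin points of the lots overlap.

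Set against each other, the lots did not overlap for myosin light chain 3-like. Its highest Dec. array stood at -1.08 and its lowest Sept. array at -0.25, and the Dec. minus Sept. difference was -2.53. Of 38488 probes on all 8 arrays, 1.24% had every Dec. array below every Sept. array. For myoglobin the highest Dec. array (0.34) exceeded the lowest Sept. array (-0.04), and the Dec. minus Sept. difference was -1.47. Both probes had both Dec. pool pairs below 0 and both Sept. pool pairs above 0, as 6.54% of all probes did. These contrasts chose the probes, so nothing is read from them.

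The study's threshold was a p of 0.05 or less with a change of 1.2-fold or more. Counted with limma's unadjusted p, both probes were called higher in small Dec. fish. Of the 39770 probes tested in that lot, 6.54% were called higher in large fish and 7.56% higher in small ones. Myoglobin was also called higher in large Sept. fish, where 1.16% of 41524 probes were called higher in large fish and 1.63% higher in small ones, and myosin light chain 3-like was not called in that lot. After Benjamini-Hochberg adjustment limma called 0 probes in either lot, against 6048 (15.2%) in the Dec. lot and 1488 (3.58%) in the Sept. lot at an unadjusted p under 0.05, and the methods' t-test on arrays also called 0 after adjustment in both. The calls of both transcripts follow from how they were chosen.

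**Figure D2:**
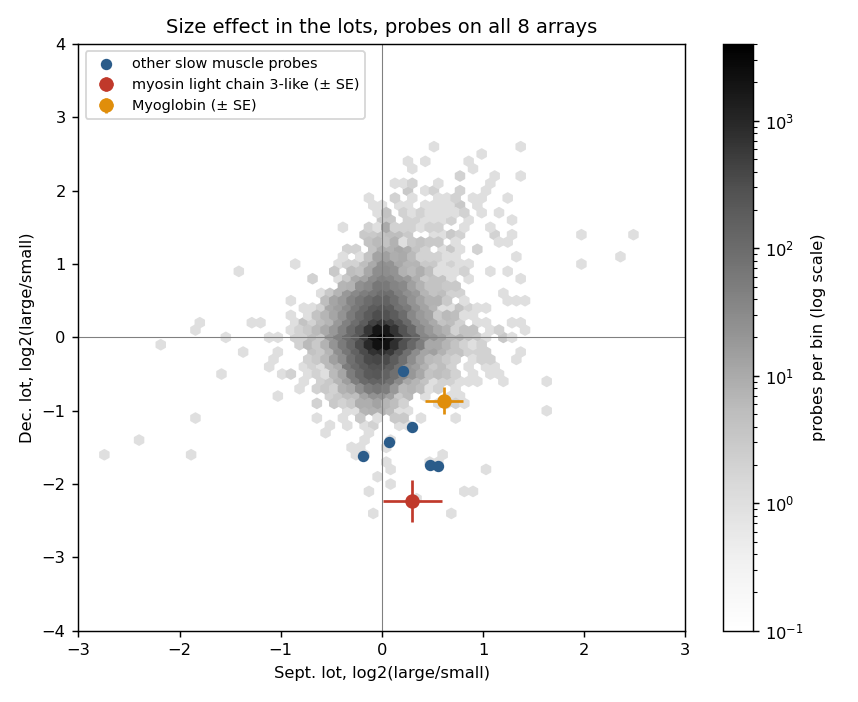
Lot mean of log2(large/small) in the Dec. lot (y axis) against the Sept. lot (x axis) for 38488 probes on all 8 arrays, shaded by the number of probes per bin on a log scale. Coloured points with bars of limma's SE are myosin light chain 3-like (-2.23 in Dec., 0.30 in Sept.) and myoglobin (-0.86 in Dec., 0.61 in Sept.). Blue points are the other slow muscle probes.

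The arrays were also compared by dye orientation. With each pool pair as a term in limma, arrays with large fish in Alexa 555 exceeded those with large fish in Alexa 647 by 0.06 ± 0.51 (SE, 8 arrays) for myosin light chain 3-like. For myoglobin the same difference was -0.79 ± 0.40, close in size to its Dec. mean. With large fish in Alexa 555 only, myoglobin averaged -1.21 in the Dec. lot and 0.17 in the Sept. lot, and with large fish in Alexa 647 only, -0.52 in the Dec. lot and 1.05 in the Sept. lot. The lot means of myoglobin kept their signs in both orientations, but these arrays had chosen the probe, so this is no test. Single arrays did not all keep the sign. The Dec. mean for Alexa 647 combined -1.37 and 0.34, and the Sept. mean for Alexa 555 combined 0.38 and -0.04.

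Within a single exchange the arrays could lie far apart, most of all in Dec. pair 2. The array with large fish in Alexa 555 fell below its partner by 1.87 for myosin light chain 3-like and by 1.94 for myoglobin. A larger gap in that pair was found for 1.12% and 1.01% of 41690 probes, where the median gap was 0.20. In Dec. pair 1 the gaps had the opposite sign, 1.22 for myosin light chain 3-like and 0.56 for myoglobin, with a larger gap for 11.4% and 31.1% of 41038 probes. In the Sept. lot the gaps were 0.19 in pair 1 and 0.68 in pair 2 for myosin light chain 3-like, and -0.996 in pair 1 and -0.77 in pair 2 for myoglobin.

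Differences between the pools of a lot had wide errors beside this spread between arrays. In the Dec. lot, pool pair 1 minus pool pair 2 was 1.08 ± 0.72 (SE) for myosin light chain 3-like and -0.45 ± 0.56 for myoglobin. In the Sept. lot it was 0.42 ± 0.72 for myosin light chain 3-like and 0.54 ± 0.56 for myoglobin. With such errors the values do not show whether the pools were alike.

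The 2 transcripts did not keep a fixed distance from each other. Myosin light chain 3-like minus myoglobin was -0.27 and -0.94 in Dec. pair 1 (large fish in Alexa 555, then 647) and -2.10 and -2.17 in Dec. pair 2. In the Sept. lot it was 0.22 and -0.96 in pair 1 and 0.47 and -0.98 in pair 2. Dec. pair 2 therefore held the widest distance on both of its arrays, with the light chain far below myoglobin. In the Sept. lot the sign of the distance followed the dye of the large fish in both pool pairs.

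Of the 1494 probes that carried a name, 9 had names of slow muscle proteins, both transcripts above included. Most names came from the study's own lists, so slow muscle probes without a difference could go unnamed and be left out. The study had listed 8 of the 9 for muscle on these same arrays, so their calls and shared direction are not independent evidence. In the Dec. lot 8 of 8 tested probes were called higher in small fish at the study's threshold, against 7.56% of all 39770 probes. Their median was -1.52 (2.88-fold), against a median of -0.01 over all probes. Without myosin light chain 3-like and myoglobin the median of the 6 others was also -1.52. In the Sept. lot 7 of 9 were above 0 and 2 were called higher in large fish, against 1.16% of all probes. The Sept. median was 0.30 (0.21 without the pair), against -0.01 over all probes.

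The thin filament proteins that switch contraction on by calcium made up most of the list. Troponin T, cardiac muscle, which ties troponin to tropomyosin, read -0.09 and -2.74 in Dec. pair 1 and -2.94 and -1.27 in Dec. pair 2 (large fish in Alexa 555, then 647), against 1.29, 0.20, 0.77 and -0.04 on the Sept. arrays in the same order. Its lot mean was -1.76 ± 0.20 in the Dec. lot, 3.39-fold higher in small fish, and 0.56 ± 0.20 in the Sept. lot, 1.47-fold higher in large fish. It was the slow muscle probe, apart from myoglobin, that was called in opposite directions in the lots. Troponin slow skeletal muscle was -1.74 ± 0.24 in the Dec. lot and 0.47 ± 0.24 in the Sept. lot, and troponin slow skeletal muscle-like was -1.23 ± 0.19 in the Dec. lot and 0.30 ± 0.19 in the Sept. lot. Every Dec. array lay below every Sept. array for 3 of the 8 probes on all arrays, against 1.24% of 38488 probes. They were myosin light chain 3-like, troponin T, cardiac muscle and troponin slow skeletal muscle. The study had listed all 3 for muscle on these arrays.

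Tropomyosin 3, the tropomyosin of mammalian slow fibres, was 3.07-fold higher in small Dec. fish (-1.62 ± 0.21). Its Sept. mean of -0.19 ± 0.21 hid a split by dye, with 0.77 and 0.90 on the arrays with large fish in Alexa 555 and -1.23 and -1.20 on those with large fish in Alexa 647. Over all 8 arrays its dye difference was 1.06 ± 0.77. Tropomyosin alpha-3 chain isoform 2 had the smallest Dec. difference of the list, -0.46 ± 0.16, beside 0.21 ± 0.16 in the Sept. lot. Myosin binding protein cardiac, a thick filament protein, was -1.43 ± 0.25 in the Dec. lot and 0.07 ± 0.25 in the Sept. lot.

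The remaining probe, troponin I, slow skeletal muscle (the inhibitory subunit), had been listed by the study for liver only. It lacked a value on 1 array of Dec. pair 2 and was therefore not tested in that lot. Its 3 Dec. values were -0.25, -1.75 and -1.08, all below 0, and its Sept. mean was -0.02 ± 0.18.

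**Figure D3:**
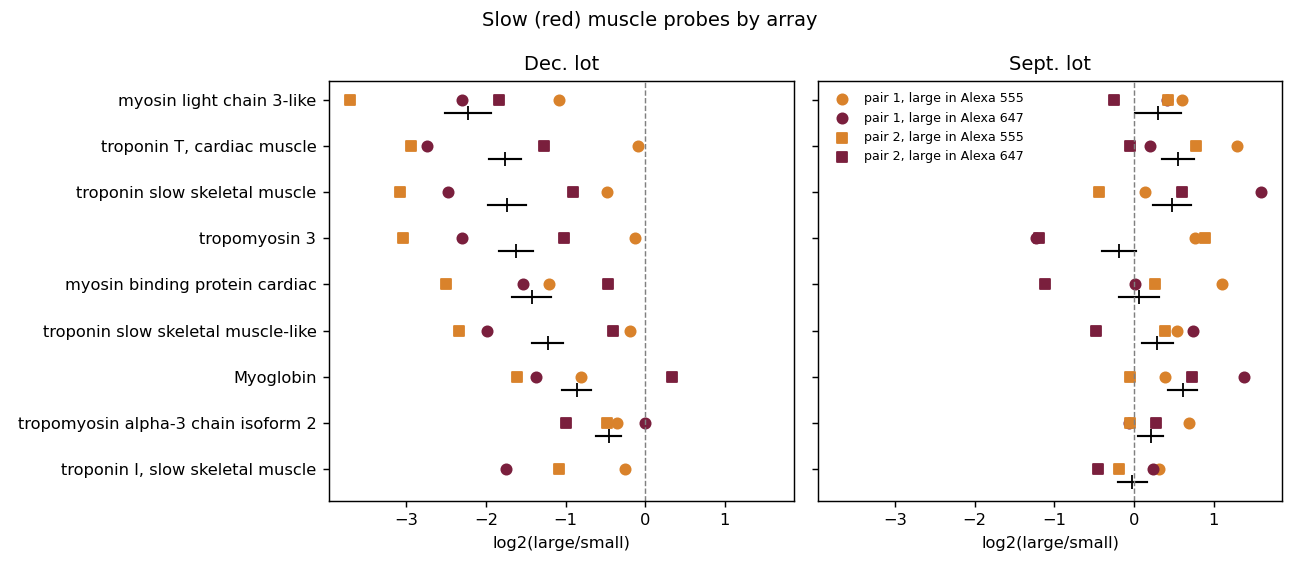
Log2(large/small) on the x axis for the 9 slow muscle probes, with the Dec. lot left and the Sept. lot right. Circles are pool pair 1, squares pool pair 2, and colours give the dye of the large fish. Black ticks with bars are lot means ± limma's SE (n = 2, spread shared by both lots). In the Dec. lot the pair 2 array with large fish in Alexa 555 and the pair 1 array with large fish in Alexa 647 hold the lowest values of 7 of the 8 tested probes.

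The slow muscle probes moved together from array to array within the Dec. lot, a pattern noticed after the values were seen. For 7 of 8 tested probes, myosin light chain 3-like and myoglobin among them, the 2 lowest of the 4 Dec. values were those of pair 1 with large fish in Alexa 647 and pair 2 with large fish in Alexa 555. The exception was tropomyosin alpha-3 chain isoform 2, and 14% of 39770 probes had the pattern. These arrays share neither pools nor dye orientation, and over all probes they correlated at -0.12. The list's median was -0.35 and -1.98 in Dec. pair 1 and -2.50 and -0.95 in Dec. pair 2 (large fish in Alexa 555, then 647). The Dec. size difference of the slow muscle transcripts thus varied between arrays, arrays of the same pools included. On the Sept. arrays the median ran from -0.25 to 0.61.

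Which probes ran most like each transcript was measured by the root mean square (RMS) difference over the 8 arrays, among named probes. Nearest to myosin light chain 3-like were the probe of LOC100136486 (A_05_P302187, RMS difference 0.48), for which the annotation gives only that symbol, troponin T, cardiac muscle (0.59) and tropomyosin 2 on probe A_05_P488277 (0.77). Troponin slow skeletal muscle (0.77) and troponin slow skeletal muscle-like (0.79) came next. These 5 were also the nearest 5 among all 38487 other probes, named or not. The study had listed all 5 for muscle. LOC100136486 was -2.12 ± 0.39 in the Dec. lot and 0.80 ± 0.39 in the Sept. lot, and tropomyosin 2 was -1.79 ± 0.20 in the Dec. lot and 0.11 ± 0.20 in the Sept. lot. Myoglobin came 20th of 1387 named probes in this order (1.24).

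Myoglobin had other neighbours. Its nearest named probes were interferon-induced guanylate-binding protein 1 (RMS difference 0.65), snare-associated protein snapin, which takes part in vesicle fusion (0.67), opioid-binding protein cell adhesion molecule-like (0.68), laminin subunit alpha-3 isoform 3, a basement membrane protein (0.69), and peptidylprolyl isomerase -like 2 (0.69). Their Dec. means lay between -0.74 and -0.59 and their Sept. means between -0.11 and 0.10, so their likeness lay in the Dec. lot. The study had listed all 5 for muscle, and they stood 5th to 21st among all 38487 other probes. A slow muscle probe, troponin slow skeletal muscle-like, came 6th among named probes (0.70). By Pearson's r over the same 8 arrays, the nearest named probe was troponin slow skeletal muscle (r = 0.93, 6th of all 38487 probes). The 8 points fall into lots and share arrays, so r is a description. Each measure shared 3 of its 5 nearest named probes with the other, for either transcript.

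Probes of genes that supply red muscle with fuel were mostly higher in large Dec. fish, opposite to the slow muscle list. Of 7 such probes, 5 were called higher in large Dec. fish and 0 in small Dec. fish, against 6.54% and 7.56% of all probes. The median was 1.07. These 5 were the ones the study had listed for muscle on these arrays, so their direction is not independent evidence. The lowest and the highest were both lactate dehydrogenase b, the heart form of the enzyme that interconverts lactate and pyruvate, at -0.08 ± 0.14 (A_05_P274809) and 1.64 ± 0.52 (A_05_P444697). The 3 probes of heart fatty acid-binding protein, which carries fatty acids in the cytoplasm, lay between 0.88 and 1.08, and lipoprotein lipase was 1.47 ± 0.20. The Sept. median was 0.14, and 1 of 7 was called, higher in large fish, against 1.16% of all probes. Both probes that the study had not listed for muscle were uncalled in both lots, with a Dec. median of 0.02.

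Transcripts of the respiratory chain, which is abundant in red fibres, went both ways. The study had listed 7 of the 12 for muscle on these arrays. Of 11 tested in the Dec. lot, 2 were called higher in large fish and 2 higher in small ones, against 6.54% and 7.56% of all probes, with a median of 0.17. The unlisted probes had 0 calls in either lot and a Dec. median of 0.04. Cytochrome c oxidase subunit vib isoform 1 was lowest at -0.87 ± 0.24, and cytochrome b highest at 1.91 ± 0.99, without being called. Among Sept. fish 0 of 12 were called higher in large fish and 2 higher in small ones, against 1.16% and 1.63% of all probes.

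The fast myofibril list, drawn up as the counterpart in white fibres, was also mixed in the Dec. lot. Many of its names give no fibre type, such as titin, actinin alpha 2, telethonin and alpha actin. Myozenin-2 is not a name of fast fibres either, and it was not placed in the slow muscle list. Its probe A_05_P277187 was 0.36 ± 0.10 in the Dec. lot and -0.25 ± 0.09 in the Sept. lot, opposite in sign to the slow muscle medians. Its probe A_05_P265999 lacked a value on a Dec. array and was 0.75 ± 0.14 in the Sept. lot. The list therefore does not stand for white fibres alone. The study had listed 18 of the 21 for muscle on these arrays, so their direction is not independent evidence. Of 20 tested probes 3 were called higher in large fish and 8 higher in small ones, against 6.54% and 7.56% of all probes, with a median of -0.19. The 3 unlisted ones were all above 0, with a median of 0.36, and 1 of them, myozenin-2, was called higher in large fish. Myosin heavy chain on probe A_05_P277167, whose name gives no fibre type, was lowest (-2.06 ± 0.51), and alpha actin on probe A_05_P423987 highest (1.29 ± 0.19). Tropomyosin 2 of A_05_P488277, a close neighbour of myosin light chain 3-like, stands in this list by its name. Among Sept. fish 5 of 21 were called higher in large fish and 3 higher in small ones, against 1.16% and 1.63% of all probes. The 4 probes with the symbol mlc-2, the regulatory light chain, which the study had not listed for muscle, ran from -0.39 to 0.52 in the Dec. lot. Of these, 1 was called higher in large and 1 higher in small Dec. fish, against 6.54% and 7.56% of all probes. Their median split by dye, at -0.56 and 0.58 in Dec. pair 1 and -0.85 and 0.86 in Dec. pair 2 (large fish in Alexa 555, then 647).

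Calcium handling proteins included the parvalbumins, buffers typical of fast muscle. Parvalbumin 2 was higher in small fish of both lots (-1.60 ± 0.44 in the Dec. lot and -2.75 ± 0.44 in the Sept. lot), while sarcalumenin precursor, a calcium store protein, was -0.41 ± 0.10 in the Dec. lot and -0.003 ± 0.103 in the Sept. lot. The median of the 3 probes was -1.58 in the Dec. lot and -1.85 in the Sept. lot, resting in the Sept. lot on the 2 parvalbumins. The study had listed all 3 on these arrays, so their direction is not independent evidence.

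**Figure D4:**
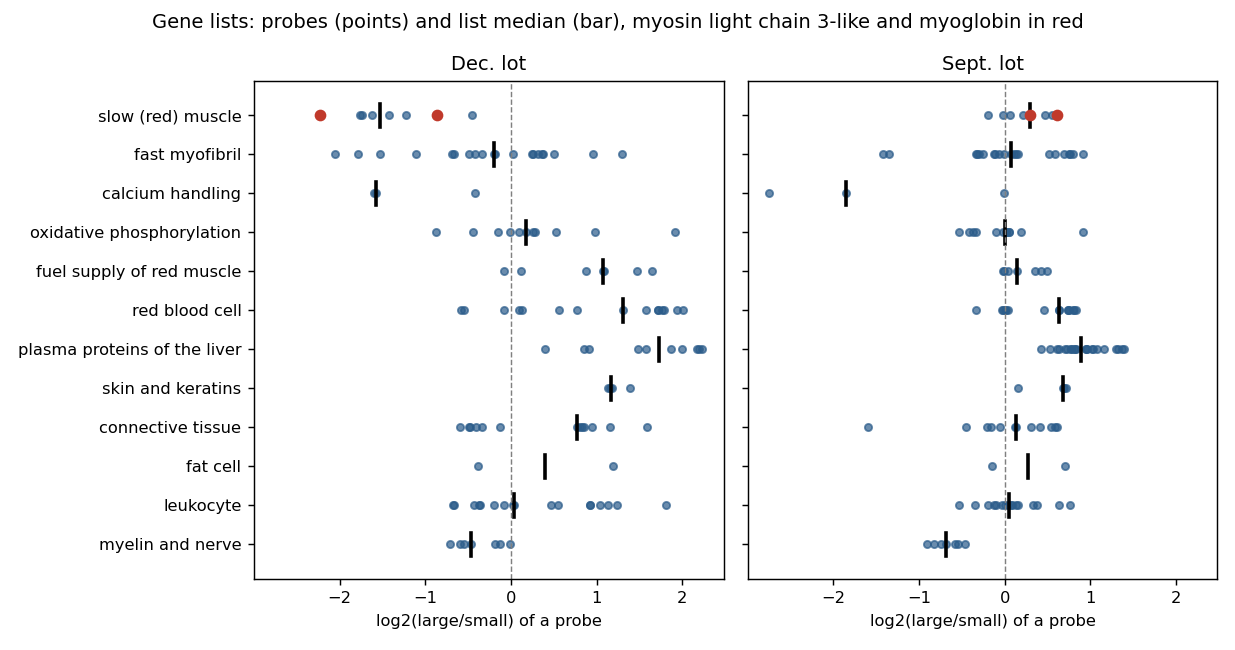
Log2(large/small) of single probes (points, x axis) by gene list (rows), with the Dec. lot left and the Sept. lot right. Black bars are list medians, and myosin light chain 3-like and myoglobin are red. The slow muscle median is -1.52 in the Dec. lot and 0.30 in the Sept. lot, and that of the fuel supply list is 1.07 in the Dec. lot and 0.14 in the Sept. lot.

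Markers of other tissues that a muscle plug can hold also differed with size, most of them listed by the study on these arrays. In the Dec. lot, skin and keratin probes were called higher in large fish for 4 of 4, against 6.54% of all probes. Their median was 1.17, with keratin 19 lowest at 1.14 ± 0.17 and Ictacalcin highest at 1.39 ± 0.14. Of 22 probes of plasma proteins of the liver, 10 were tested, since the others lacked a value on a Dec. array. All 10 were above 0 (median 1.72, from complement c3-like at 0.40 ± 0.50 to c1 inhibitor at 2.23 ± 0.51). Of these, 4 were called higher in large fish, against 6.54% of all probes. Red blood cell probes were above 0 for 12 of 15 (median 1.30, from hemoglobin subunit beta on probe A_05_P395622 at -0.58 ± 0.13 to hemoglobin subunit alpha on probe A_05_P480657 at 2.01 ± 0.70). Of the 15, 2 were called higher in large fish and 2 higher in small ones, against 6.54% and 7.56% of all probes. The 8 that the study had not listed for muscle had a median of 0.67. Sept. medians were 0.68 for skin, 0.89 for plasma proteins and 0.63 for red blood cells. These 3 lists thus lay above 0 in both lots, whereas the slow muscle list lay below 0 in the Dec. lot only.

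By array, the red blood cell median was 0.24 and 0.16 in Dec. pair 1 and 2.51 and 3.59 in Dec. pair 2 (large fish in Alexa 555, then 647), which is not the order of the slow muscle medians. The plasma protein median was 1.06 and -0.41 in Dec. pair 1 and 3.37 and 3.80 in Dec. pair 2, the last over 10 of the 22 probes and the others over 21 or 22. On the array with the median of -0.41, 20 of 21 plasma protein probes were below 0. The skin median lay between 0.83 and 2.04 on the Dec. arrays. The part of these tissues in the slow muscle ratios was not tested.

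Other tissue lists went either way. Dec. medians were 0.77 for connective tissue (matrix metalloproteinase 9 at -0.60 ± 0.09 to fibronectin precursor at 1.59 ± 0.65), 0.40 for fat cell (hormone-sensitive lipase at -0.39 ± 0.08 and adipocyte plasma membrane-associated protein at 1.19 ± 0.21) and 0.04 for leukocyte (CD209 antigen-like protein D at -0.68 ± 0.10 to c-c motif chemokine 13 precursor at 1.81 ± 0.64). Myelin and nerve probes, all listed by the study, were below 0 for 7 of 7 in each lot. Their median was -0.47 in the Dec. lot (myelin protein zero at -0.71 ± 0.24 to proteolipid protein 1b at -0.01 ± 0.08) and -0.68 in the Sept. lot. In the Sept. lot 6 of 7 were called higher in small fish, against 1.63% of all probes. The Sept. medians of the other 3 lists were 0.13 for connective tissue, 0.28 for fat cell and 0.05 for leukocyte.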

How the data were processed

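White muscle mRNA pools were compared on 2-colour Agilent salmonid arrays. The authors scanned the arrays, reviewed spots manually, dropped those with a low ratio of signals and applied lowess normalisation to and between arrays in GeneSpring. The deposited values are log2 ratios, read as small over large fish (a likely direction), 1 column per array, and were negated. Whether spread was scaled is not given in the sources used here. Scanner intensities were not analysed here, so the signal behind a ratio is unknown.

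Of 43663 rows, 60 were controls and were not used. Testing in a lot required a value on all 4 of its arrays. The arrays of an exchange were averaged, and limma 3.58.1 in R 4.3.3 (lmFit, eBayes) fitted a mean per lot, both lots sharing the spread, with Benjamini-Hochberg adjustment over all probes at 0.05. Its SEs also draw the spread of a probe towards that of all probes. Replicates are pools, so p-values measure the spread between pools and arrays, not fish. Dye orientation and pool pair differences were fitted on single arrays. Their p-values are not given, since the study's listing came from these same arrays and may depend on the spread between them. The script was tested on simulated data.

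Names came from the platform annotation (221 probes) and from names alone in the study's lists (1308 probes), 1494 probes in all. A probe with neither kind of name could enter no list. Named genes were the 2 transcripts, the slow muscle list, the 5 nearest named probes of each, and the highest and lowest Dec. member of each of 11 other lists. A few others (lipoprotein lipase, heart fatty acid-binding protein, mlc-2) were added after their values were seen. From the 12 lists 7 unrelated probes were dropped on their names. The transcripts and lists were chosen with earlier results of these data known. Alternatives were another centring, scaling or quantile normalisation, 1 dye orientation, probes on all 8 arrays and a lot fitted alone. Others were a t-test on the single arrays of a lot modelled on the methods, the replicate block and leaving out each pool pair.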

Additional observations from a re-analysis of the deposited data

Results flagged for a closer look

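Of the slow muscle probes, 5 had both Dec. pool pairs below 0 and both Sept. pool pairs above 0. The Dec. minus Sept. difference on the log2 scale was -2.53 for myosin light chain 3-like, -1.47 for myoglobin, -2.32 for troponin T, cardiac muscle, -2.21 for troponin slow skeletal muscle and -0.67 for tropomyosin alpha-3 chain isoform 2. The difference between the lots was not tested for any of them, since the probes had been chosen on these arrays, and 6.54% of 38488 probes had this arrangement of signs. No slow muscle probe had a single array far enough from the other 3 of its lot to stand out by Dixon's criterion for 4 values.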

How the results depend on the processing

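The alternatives were run on the 2 transcripts, the slow muscle median and the counts of probes called. No mean, difference or median among these changed sign, but the arrays rerun are those that chose the probes, so this is no test. The means of other probes were not rerun, and some do not keep their sign. Myosin binding protein cardiac averaged 0.56 in Sept. pair 1 and -0.43 in Sept. pair 2. The myoglobin Dec. mean became -1.35 with Dec. pool pair 2 taken from its Alexa 555 array alone (chosen after seeing the data), -1.21 when the arrays were limited to large fish in Alexa 555 and -0.52 when limited to large fish in Alexa 647, where its Sept. mean was 0.17 (Alexa 555) and 1.05 (Alexa 647). The slow muscle Dec. median became -1.09 and -2.03 with Dec. pool pair 1 or pair 2 taken from its Alexa 555 array alone. Without 1 pool pair, the Dec. means ran from -2.77 to -1.69 for myosin light chain 3-like and from -1.09 to -0.63 for myoglobin, and the Sept. means from 0.09 to 0.51 for myosin light chain 3-like and from 0.34 to 0.88 for myoglobin. The slow muscle median ran from -1.74 to -1.29 in the Dec. lot and from 0.08 to 0.56 in the Sept. lot. Of all probes, 5606 Dec. and 1158 Sept. probes passed the study's threshold. With quantile normalisation 3087 Dec. and 1930 Sept. probes passed, and with arrays scaled to 1 spread 3485 Dec. probes. When limited to large fish in Alexa 555, 1968 Sept. probes passed, and when limited to Alexa 647, 2160 Dec. and 2511 Sept. probes. With a t-test on the 4 arrays of a lot, modelled on the methods, 892 Dec. and 369 Sept. probes passed. Of the 892, 514 were higher in large and 378 in small fish. The study reported most of its Dec. sequences higher in small fish, so this t-test did not reproduce its listing. Without 1 pool pair 5397 to 7018 Dec. and 1136 to 2078 Sept. probes passed, the higher Sept. count without Sept replicate 1. The cause of these moves was not tested. The lots share only a replicate number: deviations of same-numbered pool pairs correlated at 0.07 over 38488 probes. The replicate block left the Dec. minus Sept. differences at -2.53 and -1.47, and 6336 Dec. and 1546 Sept. probes passed with it. With 2 pool pairs per lot, the number of pools and arrays limits every value.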
